A study of Mus musculus with 6 samples.

Results

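The genes described here are 35 interferon-stimulated genes of the mouse, measured in splenocyte RNA of the NOD strain, whose females become diabetic through autoimmunity without any induction. They were chosen by name, and each was read from the probe set annotated to it alone that had the highest mean log2 level over the arrays. By that rule 33 of the 35 genes were measured, out of 18193 genes with a probe set of their own. Isg15 was reached only by a probe set shared with Gm9706 and is given apart from the rest, and Ifi44 was not analysed here. The 33 genes have 51 probe sets in all, and 13 of the genes have more than 1.

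Spleens of 3 groups of female NOD mice were compared, with 2 Affymetrix Mouse Genome 430 2.0 arrays a group and 6 in all. The first group was untreated and stayed free of diabetes, the second was untreated and became diabetic, and the third was injected under the skin with TSA, the histone deacetylase inhibitor trichostatin A, once a week at 500 µg/kg body weight from 18 to 24 wk of age. By the methods, TSA was given to mice that were still free of diabetes at 18 wk, and RNA was used from those that the methods call cured. The labels give an age of 32 to 36 wk at killing for every group, whereas the methods give 24 to 28 wk for the diabetic and 28 to 34 wk for the TSA-treated mice, so that age may differ with group. RNA of several spleens (3 to 5 mice by the series text, 4 to 6 by the methods) was combined into 1 pool per group, and that pool was labeled in duplicate. Every SD, standard error and p-value below therefore rests on the spread between duplicate labelings of pools, not between mice, and the small number of arrays limits the precision. Standard errors and p-values from limma draw that spread from the duplicates of all 3 groups and in part from all probe sets. Those of a comparison thus also depend on the group left out of it. No TSA-treated mice that stayed diabetic and no mice given the injection vehicle alone are among the arrays used here, so TSA, cure and age cannot be told apart.

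Interferons are cytokines that cells release on sensing viral or self nucleic acids, and most cells carry receptors for them. Type I interferons act through JAK kinases on a complex that holds STAT2 and IRF9, which binds the interferon-stimulated response element (ISRE) in the promoters of its target genes, while interferon-γ acts on the gamma-activated site (GAS). Target genes include RNA sensors and transcription factors that amplify the response, and effectors that degrade, bind or modify viral RNA and proteins. An interferon response has been linked to autoimmune diabetes in NOD mice and in patients.

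Promoters were read to see which of these genes carry the letters of the interferon elements close to their start sites. The windows ran from 250 bases before to 50 bases after the start of each gene in RefSeq annotation of GRCm38.p6, and 27 of the 35 genes had one. The core of the ISRE was searched on either strand as GAAA, any 2 bases (NN) and GAAA. It was found in 16 of the 27 (59.3%), against 3.99% of 27025 genes with a window. Over single windows of that length, of which a gene may have more than 1, it was found in 3.44% of 32851. TTCNNNGAA, the core of the GAS, was found in 8 of the 27 (29.6%), against 9.55% of all genes with a window and 8.3% of all windows. Both were held by Oas1a, Eif2ak2, Bst2 and Igtp. The sequences that follow are the 160 bases just before the start site, 5′ to 3′ on the strand of the gene, with each ISRE match in capitals. They are shown as examples: Cmpk2, the gene farthest apart between the groups, and its neighbour Rsad2, a pair each of IFIT genes and GTPases, Bst2, which was lowest in TSA-treated mice, Oas1a, which hardly differed, and Isg15. Cmpk2 and Rsad2, which are neighbours on chromosome 12 and are read in opposite directions, lie at chr12:26469055-26469214 on the plus strand and chr12:26456453-26456612 on the minus strand.
Cmpk2: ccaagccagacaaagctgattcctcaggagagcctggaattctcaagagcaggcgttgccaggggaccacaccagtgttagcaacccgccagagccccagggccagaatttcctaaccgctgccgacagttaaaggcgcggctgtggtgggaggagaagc
Rsad2: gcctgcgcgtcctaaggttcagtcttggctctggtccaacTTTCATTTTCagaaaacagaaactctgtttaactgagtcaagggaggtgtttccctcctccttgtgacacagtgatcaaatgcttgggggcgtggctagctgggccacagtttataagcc
The windows of Ifit1 and Ifit3 lie at chr19:34640729-34640888 and chr19:34583369-34583528, both on the plus strand, and each held 2 separate matches.
Ifit1: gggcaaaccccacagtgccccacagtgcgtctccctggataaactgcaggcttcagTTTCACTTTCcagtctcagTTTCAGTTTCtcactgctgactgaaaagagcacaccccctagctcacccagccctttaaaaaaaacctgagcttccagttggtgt
Ifit3: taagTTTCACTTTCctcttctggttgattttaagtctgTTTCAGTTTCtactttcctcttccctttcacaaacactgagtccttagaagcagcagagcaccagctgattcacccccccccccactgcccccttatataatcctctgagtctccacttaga
Among the interferon-inducible GTPases, Igtp lies at chr11:58199396-58199555 on the plus strand with 1 match, and Irgm1 at chr11:48871421-48871580 on the minus strand with 2 that overlap.
Igtp: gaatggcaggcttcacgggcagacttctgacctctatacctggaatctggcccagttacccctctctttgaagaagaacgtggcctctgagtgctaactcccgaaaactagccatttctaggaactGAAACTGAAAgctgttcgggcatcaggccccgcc
Irgm1: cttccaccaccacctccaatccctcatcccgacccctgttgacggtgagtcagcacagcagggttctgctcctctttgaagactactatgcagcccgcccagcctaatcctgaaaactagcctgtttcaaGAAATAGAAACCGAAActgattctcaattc
Bst2 lies at chr8:71537473-71537632 and Oas1a at chr5:120907526-120907685, both on the minus strand and both with 2 overlapping matches.
Bst2: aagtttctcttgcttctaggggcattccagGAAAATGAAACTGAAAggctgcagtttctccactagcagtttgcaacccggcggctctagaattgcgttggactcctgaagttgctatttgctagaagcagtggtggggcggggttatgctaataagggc
Oas1a: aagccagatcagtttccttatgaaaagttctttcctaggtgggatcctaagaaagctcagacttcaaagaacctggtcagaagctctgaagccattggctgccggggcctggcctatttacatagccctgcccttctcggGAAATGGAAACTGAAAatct
Isg15, for which the arrays gave no probe set of its own, lies at chr4:156200819-156200978 on the minus strand and had 3 overlapping matches.
Isg15: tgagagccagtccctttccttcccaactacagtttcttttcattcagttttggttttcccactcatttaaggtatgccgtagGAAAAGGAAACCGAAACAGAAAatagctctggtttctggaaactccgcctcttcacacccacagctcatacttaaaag
The Cmpk2 window held no ISRE match, whereas that of its neighbour Rsad2 held 1. A match is a description of these letters and does not show that a factor bound there.

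Some properties of the arrays move with the groups and stand beside every result. On a log2 scale, the gap between the 3′ and the 5′ control probe sets of beta-actin, which widens as RNA or labeled product shortens, was 2.35 and 2.05 on the untreated non-diabetic arrays, 2.42 and 3.32 on the diabetic arrays, and 3.45 and 5.61 on the TSA-treated arrays. Over all probe sets the untreated non-diabetic duplicates correlated at r = 0.993, the diabetic ones at 0.973 and the TSA-treated ones at 0.966. The diabetic duplicates were each closer to an array of another group than to one another. Replicate 1 correlated with non-diabetic replicate 1 at 0.987, and replicate 2 with TSA-treated replicate 1 at 0.990. A place of diabetic mice between the other groups, or a split of their duplicates, is thus not particular to the genes described here. The mean log2 level of 5 measured B cell markers was 10.05 and 10.14 on the non-diabetic arrays, 9.88 and 9.81 on the diabetic arrays, and 9.21 and 7.79 on the TSA-treated arrays. Markers of T cells went from 8.28 and 8.29 to 7.92 and 8.01 and then to 7.73 and 7.43 in the same order, so that the arrays had the signal of a lymphoid tissue in every group. The mean of 10 pancreatic acinar markers was 5.07 and 5.00 in non-diabetic, 11.57 and 11.57 in diabetic and 9.14 and 8.83 in TSA-treated mice. The part of these properties in the results on interferon-stimulated genes was not tested. Because the spleen is a mixture, fewer cells of a type cannot be told apart from less RNA per cell.

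None of the 33 genes passed the test in any comparison. With limma and Benjamini-Hochberg adjustment over 45037 probe sets, 0 of 33 had an adjusted p under 0.05 between TSA-treated and non-diabetic mice, where 0.0688% of all probe sets were called. The count was 0 as well between diabetic and non-diabetic mice (0.0888% of all probe sets called) and between diabetic and TSA-treated mice (0.0266%). The smallest adjusted p among the genes was 0.0871, for Cmpk2 between TSA-treated and non-diabetic mice. The smallest was 0.735 between diabetic and non-diabetic mice and 0.902 between diabetic and TSA-treated mice. The local pooled error (LPE) test, 1 of the tests tried beside limma, called 1 gene, Cmpk2, higher in TSA-treated than in non-diabetic mice (0.362% of all probe sets and 0.588% of all genes called higher) and 0 in the other comparisons. The methods' t-test called 0 after adjustment in each comparison.

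At an unadjusted p under 0.05 from limma, the comparison of TSA-treated with non-diabetic mice had the most genes. Of the 33 genes, 9 were higher in TSA-treated mice (27.3%), against 6.39% of all probe sets and 8.8% of all genes read in the same way. A further 6 were lower (18.2%), against 8.34% of all probe sets and 7.19% of all genes. Between diabetic and non-diabetic mice 2 genes were higher (6.06%), Ifih1 and Cmpk2, and 0 were lower. Over all probe sets these shares were 2.84% and 3.43%, and over all genes 4.33% and 2.41%. Diabetic mice were above TSA-treated mice for 2 genes (6.06%), Ddx58 and Bst2, and below them for 4 (12.1%), Ifih1, Rsad2, Cmpk2 and Igtp. Over all probe sets these shares were 2.06% and 2.21%, and over all genes 2.81% and 2.68%.

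The genes went both ways, so that their median difference was small. Between TSA-treated and non-diabetic mice the median log2 difference was 0.05 (-1.10 to 1.88), with 18 genes above and 15 below 0, beside a median of 0.05 over all probe sets and 0.07 over all genes read by their brightest probe set. Between diabetic and non-diabetic mice it was 0.14 (-0.64 to 0.91), with 24 above and 9 below 0, beside 0.01 and 0.04. Between diabetic and TSA-treated mice it was -0.01 (-0.97 to 1.01), with 16 above and 17 below 0, beside -0.02 and -0.02. The 2 arrays of one group lay wholly above those of the other for 13 genes (39.4%) and wholly below for 8 (24.2%) in TSA-treated against non-diabetic mice. There 26.3% and 21.5% of all probe sets did so, and 29.9% and 19.6% of all genes. In diabetic against non-diabetic mice these counts were 12 and 4 (21.6% and 19.4% of all probe sets, 25.5% and 17.5% of all genes). In diabetic against TSA-treated mice they were 8 and 10 (11.4% and 16.2% of all probe sets, 12.4% and 16.2% of all genes).

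**Figure D1:**
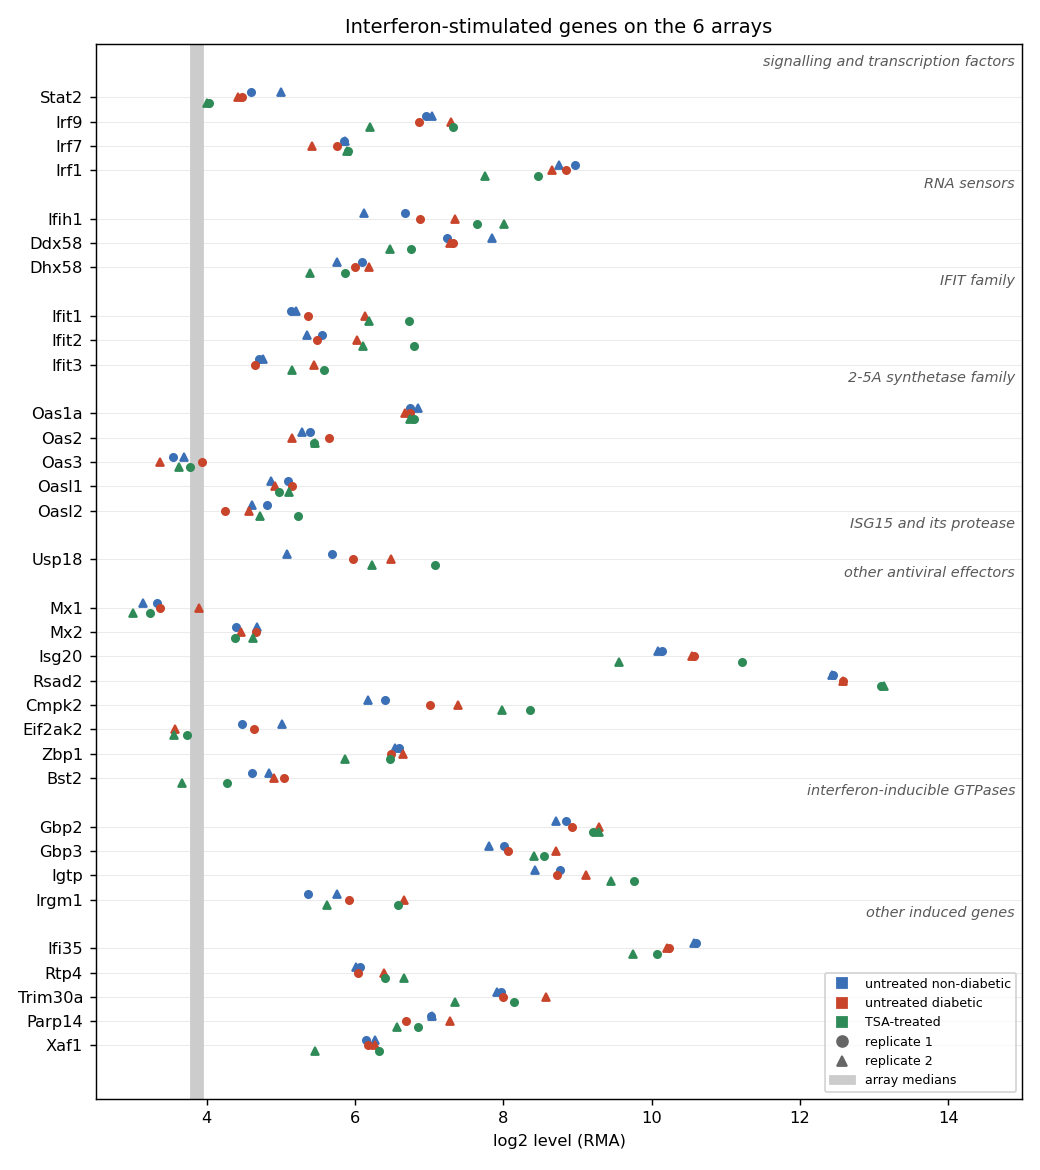
Log2 levels (RMA, horizontal axis) of the 33 interferon-stimulated genes on each array, grouped by role, with color for the group and shape for the replicate; the gray band spans the medians of the 6 arrays (3.79 to 3.95). Cmpk2, Ifih1 and the IFIT genes lie farther right in TSA-treated than in non-diabetic mice, Ddx58, Bst2 and Eif2ak2 lie farther left, and the oligoadenylate synthetases other than Oasl2 differ little in group mean.

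Cmpk2, a mitochondrial nucleotide kinase induced with viral infection, stood farthest apart. Its log2 levels were 6.40 and 6.17 in non-diabetic, 7.01 and 7.39 in diabetic, and 8.36 and 7.98 in TSA-treated mice. The 3 groups did not overlap, with diabetic mice between the other two. TSA-treated mice were 1.88 ± 0.23 (SE) above non-diabetic mice at an adjusted p of 0.0871 from limma. The diabetic arrays were 0.91 above the non-diabetic and 0.97 below the TSA-treated arrays (differences of 0.91 and -0.97, adjusted p = 0.735 and 0.902 from limma). Cmpk2 was on either side of the threshold depending on which arrays were fitted: the adjusted p from limma was 0.0415 without either diabetic array and 0.0371 without TSA-treated replicate 1, but 0.192 without TSA-treated replicate 2 and 0.585 and 0.903 without non-diabetic replicates 1 and 2. A second Cmpk2 probe set was below the array medians, at 3.18 to 3.72 on all arrays, and differed by -0.03 between TSA-treated and non-diabetic mice.

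Rsad2, which codes for viperin, an enzyme that makes a chain-terminating nucleotide, had the brightest probe set of the 33. Its levels were 12.44 and 12.44 in non-diabetic, 12.58 and 12.58 in diabetic, and 13.10 and 13.14 in TSA-treated mice, again without overlap and in the same order as those of its neighbour Cmpk2. TSA-treated mice were 0.68 ± 0.15 (SE) above non-diabetic mice (adjusted p = 0.157 from limma). The other probe sets of Rsad2 did not follow it. One read 10.08, 10.30, 10.47, 6.80, 10.25 and 8.91 and the other 7.18, 7.65, 7.57, 5.72, 7.95 and 4.74, in the order non-diabetic, diabetic and TSA-treated, replicate 1 before replicate 2. Both were lowest on diabetic replicate 2 and TSA-treated replicate 2, and their differences between TSA-treated and non-diabetic mice were -0.61 and -1.07.

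Sensors of viral RNA did not move as one. Ifih1, the sensor MDA5 of long double-stranded RNA, read 6.67 and 6.13 in non-diabetic, 6.88 and 7.35 in diabetic, and 7.64 and 8.01 in TSA-treated mice, with no overlap between groups. It was 1.42 ± 0.28 (SE) higher in TSA-treated than in non-diabetic mice (adjusted p = 0.137 from limma). Ddx58, the sensor RIG-I of RNA ends, went the other way: it read 7.23 and 7.84, 7.32 and 7.28, and 6.76 and 6.47 in the same order. Here the TSA-treated arrays lay below both other groups, which overlapped, and the difference from non-diabetic mice was -0.93 (adjusted p = 0.200 from limma). Dhx58, which codes for LGP2, a regulator of the other sensors, had group means of 5.92, 6.09 and 5.63 in non-diabetic, diabetic and TSA-treated mice, and its TSA-treated arrays overlapped the non-diabetic ones. No test of the difference between Ifih1 and Ddx58 was made.

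Of the transcription factors of the response, 3 of 4 had a lower mean in TSA-treated than in non-diabetic mice. Stat2, a STAT of type I and III interferon signalling, read 4.59 and 5.00 in non-diabetic, 4.47 and 4.42 in diabetic, and 4.03 and 4.0 in TSA-treated mice. The groups did not overlap, and TSA-treated mice were lower than non-diabetic mice, with a difference of -0.78 ± 0.19 (SE; adjusted p = 0.180 from limma). The TSA-treated values of Stat2 lay close to the medians of those arrays (3.81 and 3.95). A second Stat2 probe set, at 2.77 to 3.30, lay below the array medians and differed by -0.33. Irf1, an activator downstream of interferon-γ, read 8.97 and 8.75, 8.84 and 8.66, and 8.46 and 7.75 in the same order. Only its TSA-treated arrays stood apart, mainly replicate 2: the difference from non-diabetic mice was -0.75 with both arrays and -0.40 without that replicate (adjusted p = 0.285 and 0.488 from limma). Irf7, which drives the second wave of interferon-α, had group means of 5.86, 5.59 and 5.89, and Irf9, the DNA-binding partner of STAT2, had 7.0, 7.07 and 6.76. For Irf9 the TSA-treated arrays spanned both other groups.

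IFIT proteins bind foreign RNA and block its translation, and the probe sets of all 3 genes were above the non-diabetic mean in TSA-treated mice. Ifit1 read 5.14 and 5.21 in non-diabetic, 5.36 and 6.14 in diabetic, and 6.72 and 6.19 in TSA-treated mice, a difference of 1.28 ± 0.31 (SE) between TSA-treated and non-diabetic mice (adjusted p = 0.179 from limma). Ifit2 read 5.55 and 5.35, 5.48 and 6.03, and 6.79 and 6.10, with a difference of 0.99 (adjusted p = 0.229 from limma). Ifit3 differed by 0.64 (adjusted p = 0.409 from limma). In each of these genes diabetic replicate 1 was close to the non-diabetic arrays and diabetic replicate 2 was near the TSA-treated arrays, which did not overlap the non-diabetic ones. The family means on the 6 arrays were 5.13 and 5.11 in non-diabetic, 5.16 and 5.87 in diabetic, and 6.36 and 5.81 in TSA-treated mice, so that the diabetic duplicates, which came from 1 pool, stood apart.

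**Figure D2:**
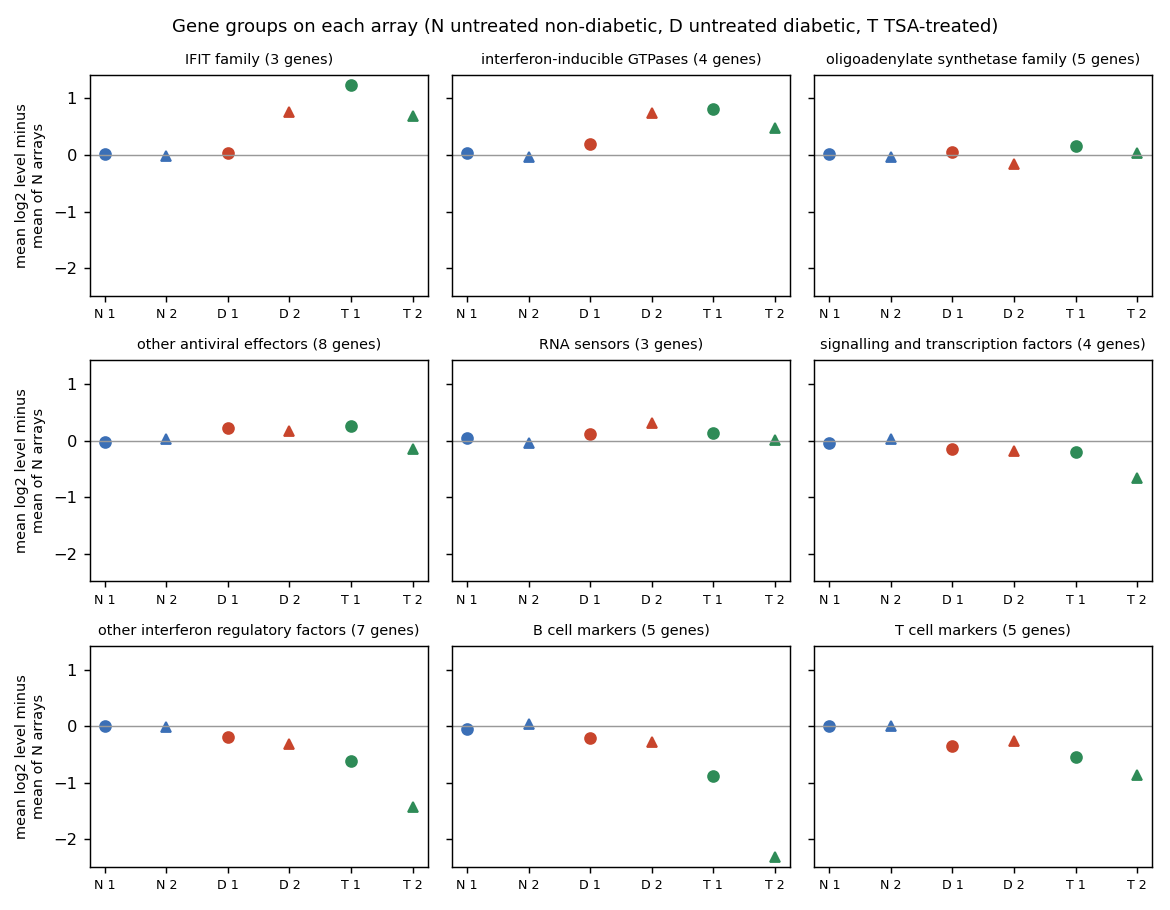
Mean log2 level of gene groups on each array minus the mean of the 2 untreated non-diabetic arrays (vertical axis), with circles for replicate 1 and triangles for replicate 2. The IFIT genes and the GTPases are highest on diabetic replicate 2 and the TSA-treated arrays, the oligoadenylate synthetases stay near 0, and the other interferon regulatory factors and the B cell markers are lowest on TSA-treated replicate 2.

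The oligoadenylate synthetase family, whose active enzymes switch on the antiviral ribonuclease RNase L, differed little in its mean between groups. The mean of the 5 genes was 5.11 and 5.06 in non-diabetic, 5.14 and 4.93 in diabetic, and 5.24 and 5.13 in TSA-treated mice. Oas1a, whose promoter held both motifs, had group means of 6.79, 6.70 and 6.76. Oas2 (5.34, 5.40 and 5.46), Oas3 (3.61, 3.65 and 3.70) and Oasl1 (4.98, 5.03 and 5.04) were also nearly level. Oasl2 had the widest range of the family: it read 4.81 and 4.61, 4.25 and 4.57, and 5.23 and 4.72, with diabetic mice lowest, and its largest difference, of diabetic from TSA-treated mice, was -0.57 ± 0.24 (SE; adjusted p = 0.902 from limma).

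The ubiquitin-like modifier ISG15 and its protease USP18, which also dampens signalling at the type I receptor, were read by 1 probe set each. Usp18 was at 5.69 and 5.07 in non-diabetic, 5.97 and 6.48 in diabetic, and 7.08 and 6.23 in TSA-treated mice. Non-diabetic mice lay below both other groups, which overlapped. The difference was 1.27 ± 0.37 (SE) in TSA-treated and 0.84 ± 0.37 (SE) in diabetic mice (adjusted p = 0.219 and 0.799 from limma). Leaving out TSA-treated replicate 1 brought the difference to 0.85, and leaving out replicate 2 brought it to 1.70. The probe set shared by Isg15 and Gm9706 read 5.11 and 5.33, 6.0 and 5.23, and 5.88 and 5.69, and its differences from non-diabetic mice were 0.56 in TSA-treated and 0.39 in diabetic mice (adjusted p = 0.429 and 0.915 from limma). What share of its signal comes from Isg15 was not tested.

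Among the interferon-inducible GTPases, which attack vacuoles that hold pathogens, all 4 were above the non-diabetic mean in both other groups. Igtp, an immunity-related GTPase, read 8.77 and 8.43 in non-diabetic, 8.72 and 9.12 in diabetic, and 9.76 and 9.45 in TSA-treated mice, and only the TSA-treated arrays stood clear of the rest. Its difference from non-diabetic mice was 1.01 ± 0.23 (SE; adjusted p = 0.164 from limma). Irgm1, a regulator of that family, read 5.37 and 5.75, 5.91 and 6.66, and 6.58 and 5.62, so that the TSA-treated duplicates reached from the non-diabetic to the diabetic range. For Gbp2 and Gbp3, guanylate-binding proteins, the differences between TSA-treated and non-diabetic mice were 0.47 and 0.57, and those between diabetic and non-diabetic mice 0.33 and 0.48. At the probe set chosen for each of these genes the diabetic arrays lay above the non-diabetic arrays without overlap.

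Other antiviral effectors were split. Eif2ak2, the kinase PKR that stops translation on sensing double-stranded RNA, read 4.48 and 5.01 in non-diabetic, 4.64 and 3.57 in diabetic, and 3.73 and 3.56 in TSA-treated mice. Its diabetic replicate 2 was below replicate 1 (difference -1.07), so that the diabetic arrays covered the gap between the other groups, and the difference of TSA-treated from non-diabetic mice was -1.10 ± 0.38 (SE; adjusted p = 0.276 from limma). The 3 lowest of these values lay below the array medians, and the other probe sets of Eif2ak2 differed by 0.17 and 0.03. Bst2, tetherin, which holds budding virus on the cell surface and also marks plasmacytoid dendritic cells, read 4.61 and 4.84, 5.04 and 4.91, and 4.27 and 3.66. The groups did not overlap, TSA-treated mice were lowest, and the difference of diabetic from TSA-treated mice was 1.01 ± 0.24 (SE; adjusted p = 0.902 from limma). That difference was 0.71 without TSA-treated replicate 2 and 1.31 without replicate 1. The Bst2 value on TSA-treated replicate 2, 3.66, lay below the median of that array (3.95).

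Of the remaining effectors, Isg20, an exonuclease, had group means of 10.11, 10.56 and 10.38, and its TSA-treated duplicates, at 11.21 and 9.55, were the farthest apart of any of the 33 genes. Zbp1, a sensor of Z-form nucleic acid that triggers cell death, had means of 6.56, 6.56 and 6.17. The Mx genes code for dynamin-like proteins that trap viral particles. Mx1 had the dimmest probe set of the 33, at 3.33 and 3.14 in non-diabetic, 3.37 and 3.90 in diabetic, and 3.23 and 3.00 in TSA-treated mice, so that 5 of its 6 values lay below the array medians. Diabetic mice were highest, mainly through replicate 2. Mx2 was level, with group means of 4.54, 4.56 and 4.50.

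The last group holds induced genes of other or less settled roles. Ifi35, a partner of NMI, read 10.60 and 10.57 in non-diabetic, 10.23 and 10.21 in diabetic, and 10.07 and 9.74 in TSA-treated mice. The groups did not overlap and non-diabetic mice were highest, with a difference of -0.68 ± 0.18 (SE) for the TSA-treated arrays (adjusted p = 0.196 from limma). Rtp4, a receptor transport protein, was 0.49 higher in TSA-treated than in non-diabetic mice (adjusted p = 0.328 from limma). Trim30a, Parp14 and Xaf1 had differences of -0.19, -0.32 and -0.32 in the same comparison. For Trim30a and Xaf1 the arrays of the groups overlapped, and without TSA-treated replicate 2 their differences turned to 0.21 and 0.12. Trim30a, a ubiquitin ligase that restrains inflammatory signalling, was above the non-diabetic mean in diabetic mice, at 8.28 against 7.94.

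**Figure D3:**
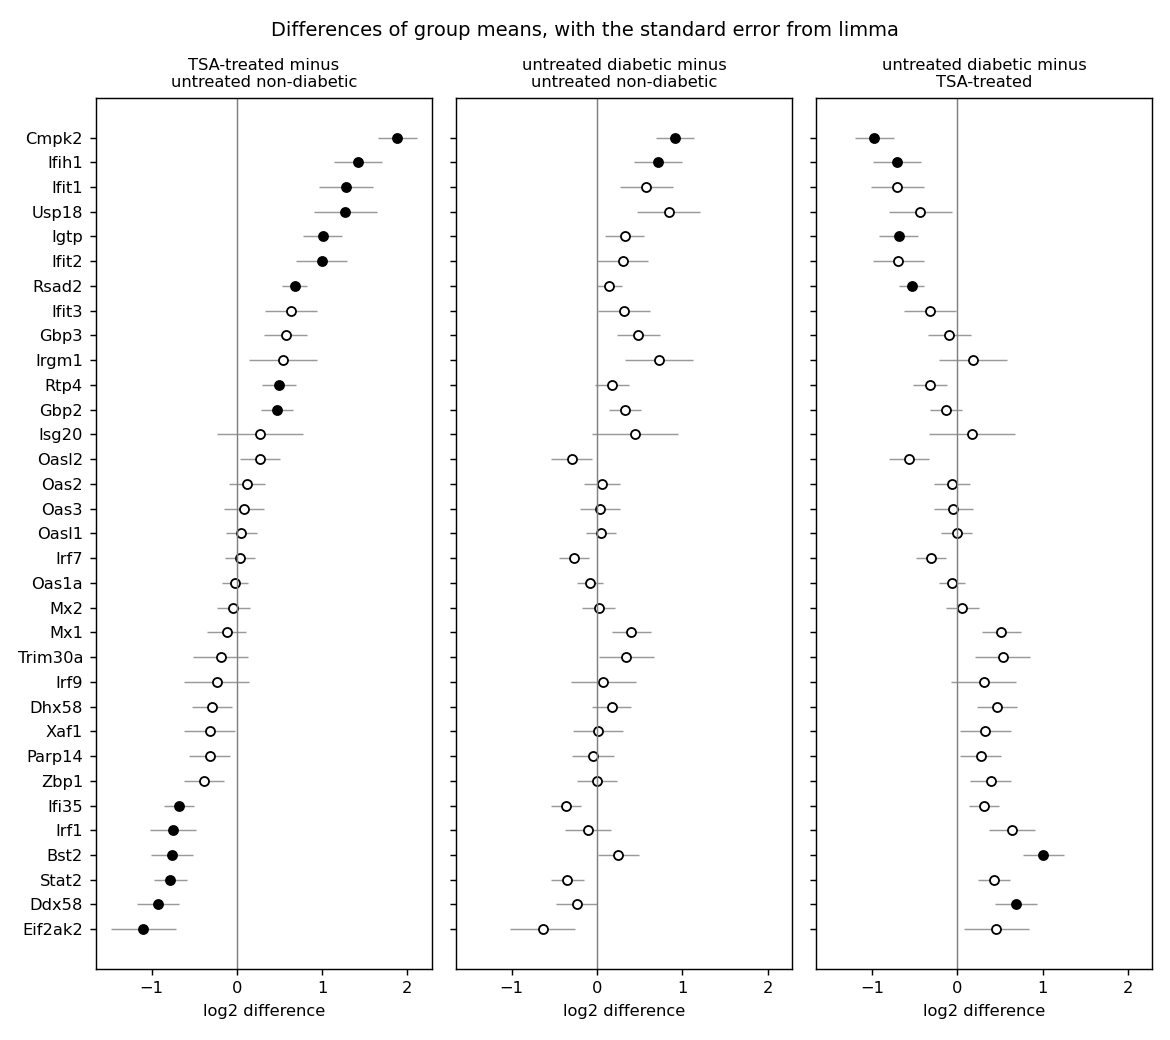
Log2 differences between the means of 2 groups (horizontal axes) with standard errors from limma for the 33 genes, in the order of the difference between TSA-treated and untreated non-diabetic mice; filled points have an unadjusted p under 0.05, and no gene has an adjusted p under 0.05. The left panel runs from 1.88 for Cmpk2 to -1.10 for Eif2ak2, and the middle panel spans -0.64 to 0.91.

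Probe sets of 1 gene disagreed in several cases, and these bear on how far a single probe set stands for its gene. For Trim30a the brighter probe set read 7.35 to 8.57 on all arrays, while the other read 7.70 and 8.52 in non-diabetic, 7.92 and 4.83 in diabetic, and 4.97 and 3.91 in TSA-treated mice. The second probe set thus divided the diabetic duplicates, and its difference of TSA-treated from non-diabetic mice was -3.67, larger than that of any brightest probe set of the 33 genes, yet not called (adjusted p = 0.203 from limma). The 3 arrays on which it was low were the 3 with an actin gap of 3.32 or more. For Ifi35 the 3 probe sets differed by -0.68, -1.43 and 0.04 between TSA-treated and non-diabetic mice, and the second of these was low only on TSA-treated replicate 2, at 5.10 against 7.30 to 7.67 elsewhere. For Gbp2 both probe sets had a higher mean in TSA-treated than in non-diabetic mice, by 0.47 and 0.31. The second read 7.84 and 7.97 in non-diabetic, 7.97 and 8.62 in diabetic, and 8.62 and 7.80 in TSA-treated mice. Its groups thus overlapped, and TSA-treated replicate 2 was below both non-diabetic arrays. The other probe sets of Ddx58 differed by -0.29 and -0.40, in the direction of its brightest one. However, the former read 3.58 to 4.18, near the array medians, and the latter 2.82 to 3.49, below them.

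**Figure D4:**
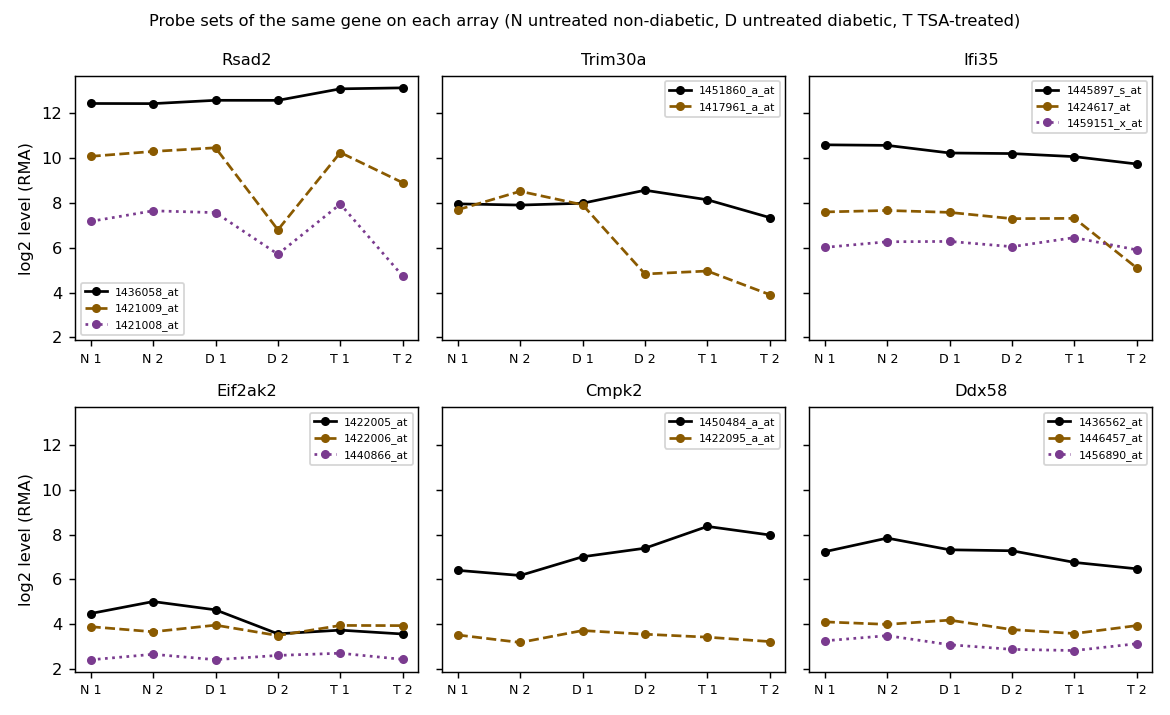
Log2 levels (RMA, vertical axis) of every probe set of 6 interferon-stimulated genes on each array, 1 line per probe set, solid for the brightest. The second Trim30a probe set reads 4.83 on diabetic replicate 2 and 4.97 and 3.91 on the TSA-treated arrays, and the dimmer Rsad2 probe sets are lowest on diabetic replicate 2 and TSA-treated replicate 2.

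Promoter motifs were set beside the differences. The 15 measured genes with an ISRE match had a median difference between TSA-treated and non-diabetic mice of 0.47 (-1.10 to 1.42), and the 10 with a window but no match had 0.04 (-0.75 to 1.88). The range of each group covered most of the other, since Eif2ak2, Ddx58, Stat2 and Bst2, all below 0, have a match and Cmpk2, the gene farthest above 0, has none in its window. For the GAS letters the medians were -0.35 in 8 genes with a match and 0.27 in 17 without. Between diabetic and non-diabetic mice the medians were 0.32 with and 0.03 without an ISRE match. These are descriptions over genes, which share arrays, and no test was made of them.

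Upstream of these genes, the interferons themselves gave a mean signal below the median of every array (3.79 to 3.95). The mean of 9 measured interferon genes, among them Ifnb1 and Ifng, was 3.29 to 3.58 on the 6 arrays. Ifng, the cytokine of activated T and NK cells, had values of 3.32 and 2.89 in non-diabetic and 3.10 and 3.25 in diabetic mice. In TSA-treated mice it read 3.06 and 3.15, so that the groups overlapped. All its values lay below the array medians, where an absent transcript cannot be told apart from an unchanged one. The receptor chains Ifnar1, Ifnar2, Ifngr1, Ifngr2, Il10rb and Il28ra had a median difference of -0.13 between TSA-treated and non-diabetic mice and of 0.22 between diabetic and non-diabetic mice. The former rested on 1 array: it was 0.22 without TSA-treated replicate 2 and -0.34 without replicate 1. None of the 6 had an unadjusted p under 0.05 from limma in either comparison.

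The rest of the pathway was likewise without calls. Of 101 further genes listed for it 88 were measured, and 0 had an adjusted p under 0.05 from limma in any comparison. At an unadjusted p under 0.05 from limma, 6 were higher in TSA-treated than in non-diabetic mice (6.82%, against 6.39% of all probe sets and 8.8% of all genes) and 15 were lower (17%, against 8.34% and 7.19%). LPE called 1 of the 88 higher and 2 lower there, and 0 in the other comparisons. Between TSA-treated and non-diabetic mice LPE called 0.588% of all genes higher and 1.12% lower, and 163 and 1234 of all 45037 probe sets. All 7 other interferon regulatory factors and their partners were below the non-diabetic mean in TSA-treated mice, and 4 of them had an unadjusted p under 0.05 from limma, where 8.34% of all probe sets and 7.19% of all genes were lower at that level. Their median difference was -1.29, and -0.46 without TSA-treated replicate 2. Irf4, a factor of plasma cell and T cell differentiation, read 7.89 and 7.92 in non-diabetic, 7.83 and 8.26 in diabetic, and 7.22 and 4.76 in TSA-treated mice. Irf5 and Irf8, which act in macrophages, dendritic cells and B cells, differed by -1.42 and -1.41 there (adjusted p = 0.178 and 0.371 from limma). Without TSA-treated replicate 2 the differences of Irf4, Irf5 and Irf8 were -0.69, -0.89 and -0.41. These 3 factors were lowest on TSA-treated replicate 2, the array with the lowest B cell markers (7.79). That array also had the widest actin gap (5.61) and the lowest T cell marker mean (7.43). Irf2 was higher on it than on TSA-treated replicate 1, at 7.07 against 6.54. Irf2bp2 differed from non-diabetic mice by -1.25 without that array. The part of these array properties was not tested.

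Among kinases and adaptors, Ikbke, which phosphorylates interferon regulatory factors, read 7.26 and 6.99 in non-diabetic, 6.17 and 6.32 in diabetic, and 6.25 and 5.97 in TSA-treated mice. The differences from non-diabetic mice were -0.88 and -1.02, which rest on the same non-diabetic arrays (adjusted p = 0.735 and 0.128 from limma). Stat3 and Tyk2 were lower in TSA-treated than in non-diabetic mice, with differences of -0.96 and -0.59, and Mavs, the adaptor of the RNA sensors, was higher by 0.60. Of the inhibitors, Socs1 and Socs3 differed by -0.09 and 0.01, and Pias3 by -0.90.

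Of 48 other interferon-induced genes, 20 were above and 28 below 0 between TSA-treated and non-diabetic mice. Gbp7 had the largest positive difference, 1.56 (adjusted p = 0.127 from limma), with levels of 7.64 and 7.24 in non-diabetic, 7.84 and 8.53 in diabetic, and 8.88 and 9.12 in TSA-treated mice. Slfn2, a regulator of lymphocyte quiescence, had the largest negative difference, -2.11, with 9.21 and 9.16, 9.07 and 7.27, and 7.18 and 6.97 in the same order, and so divided the diabetic duplicates as the second Trim30a probe set did. Ly6e, a surface protein that limits viral entry, differed by -1.61, but its TSA-treated values of 8.69 and 6.76 were far apart. Between diabetic and non-diabetic mice, the differences of largest size in this list were -1.10 for Adar, an RNA-editing enzyme, 1.04 for Pnpt1, a ribonuclease of mitochondria, and -1.02 for Slfn2. Helz2, a helicase, had the smallest adjusted p there, with a difference of -0.94 (adjusted p = 0.595 from limma). Cxcl9 and Cxcl10, chemokines that draw T cells and are induced by interferon-γ, were 0.68 and 0.61 higher in diabetic than in non-diabetic mice (limma adjusted p = 0.793 and 0.777). Between TSA-treated and non-diabetic mice they differed by -0.04 and 0.19 (adjusted p = 0.969 and 0.731 from limma). The diabetic values of Cxcl9 were 7.98 and 8.65, against 7.64 and 7.63 in non-diabetic and 7.69 and 7.50 in TSA-treated mice, so that diabetic mice were highest without overlap.

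Markers of cells that respond to or make interferon were read beside these results. The mean of 7 macrophage and monocyte markers was 8.74 and 8.63 in non-diabetic, 8.89 and 9.41 in diabetic, and 9.22 and 8.23 in TSA-treated mice. For 7 neutrophil markers it was 10.06 and 10.13, 10.73 and 10.74, and 10.24 and 9.47. For 6 markers of plasmacytoid dendritic cells, the main makers of interferon-α, it was 5.66 and 5.69, 5.74 and 5.75, and 5.37 and 5.55, a list that holds Bst2 itself. For 4 NK cell markers it was 4.32 and 4.50, 4.87 and 5.12, and 4.60 and 4.25, and Gzma, a granzyme of NK and T cells, was 1.51 higher in diabetic than in non-diabetic mice (adjusted p = 0.528 from limma). For 5 erythroid markers it was 7.97 and 7.92, 8.48 and 8.49, and 9.02 and 8.24. Epb4.2 and Ermap, proteins of the red cell membrane, had group means of 6.64, 8.04 and 8.83 and of 10.32, 11.02 and 11.69, in the same order of groups as Cmpk2, Rsad2 and Ifih1. The erythroid list was not of one direction. Alas2 differed by -1.11 between TSA-treated and non-diabetic mice, and by 0.29 without TSA-treated replicate 2. Hba-a1 and Rhag differed by 0.47 and 0.50 there, and Rhag by -0.46 without TSA-treated replicate 1. TSA-treated replicate 2 was below replicate 1 in 26 of the 33 interferon-stimulated genes, and the share of all genes was not counted. It was also below in the macrophage, neutrophil, B cell, T cell, NK cell, erythroid and pancreatic acinar means, but not in the plasmacytoid dendritic cell mean. Over all genes read by their brightest probe set, the mean level was 5.43 on TSA-treated replicate 1 and 5.37 on replicate 2. The part of these markers in the differences of interferon-stimulated genes was not tested.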

How the data were processed

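Scaling by quantiles and probe summary by the Robust Multi-array Average (RMA) were done by the authors, and the deposited table gives log2 levels of 45101 probe sets. The 64 control probe sets were not tested. Of the remaining 45037, the platform annotation gives 1 gene for 34945, several for 932 and none for 9160. No filter on level was applied. A single limma 3.58.1 fit (R 4.3.3) held the 6 arrays with a mean for each group, and calls were made at an adjusted p under 0.05 (Benjamini-Hochberg). The LPE test was rewritten from its published description, and the scripts were tested on simulated data. The genes, the lists of pathway genes and markers and the motifs were chosen with earlier results of these data known. Values on every array are given for genes called or with the 4 largest differences in a comparison, for the brightest and dimmest, for the widest of each role, and for some further genes chosen after their values were seen. Alternatives were a replicate block, leaving out each array, other tests, fits of 2 groups alone, a filter on dim probe sets, other scaling and averaging the probe sets of each gene.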

Additional observations from a re-analysis of the deposited data

How the results depend on the processing

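The direction of 23 differences, picked in these data by an unadjusted p under 0.05 from limma, was recomputed under the alternatives. Many alternatives leave the difference of group means as it is, so that its direction could not turn there. These are the other tests, the blocks, the fits of 2 groups alone, the filter and leaving out an array of the third group. Most of the agreement in direction was therefore fixed in advance. Of 391 values, 382 kept their direction and side of the threshold, 8 kept their direction and passed it, and 1 turned: averaged over its 3 probe sets, Rsad2 differed by -0.33 between TSA-treated and non-diabetic mice, since its dimmer probe sets went the other way. Calls among the 33 genes appeared only between TSA-treated and non-diabetic mice. There Cmpk2 was the 1 gene called by a fit of the 2 groups alone, by LPE, after quantile normalization again and in some fits without 1 array (0 to 1), and 2 genes, Cmpk2 and Ifih1, were called with a crossed replicate block in the 2 groups alone. The adjusted p of Cmpk2 ranged from 0.0167 to 0.903. The median difference of the genes moved from 0.05 to 0.21 there after quantile normalization again, and was 0.012 to 0.161 without 1 array. Between diabetic and non-diabetic mice it was 0.081 to 0.25 without 1 array and 0.048 with the probe sets of each gene averaged, and between diabetic and TSA-treated mice -0.103 to 0.097 without 1 array.

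Over all probe sets, calls between diabetic and non-diabetic mice numbered 40, with 1 by the methods' t-test, 467 by LPE and 23 to 243 without 1 array. Between TSA-treated and non-diabetic mice they numbered 31, with 714 from the 2 groups alone, 2 by the t-test, 1397 by LPE, 60 after quantile normalization again and 0 to 2045 without 1 array. Between diabetic and TSA-treated mice they numbered 12, with 59 by LPE, 22 without dim probe sets, 0 by the t-test, from the 2 groups alone and with median centring, and 0 to 1047 without 1 array. The cause was not tested. Same-numbered arrays showed no positive pairing. Their deviations correlated at r = -0.34 between diabetic and non-diabetic, -0.04 between TSA-treated and non-diabetic and -0.10 between diabetic and TSA-treated mice. The first value has the sign of a crossed pairing, of replicate 1 with replicate 2, and a count with a crossed block is not given here for that comparison. With a replicate block 0 of the 33 genes were called in each comparison (Cmpk2 adjusted p = 0.205 from limma) and 33, 30 and 0 probe sets. In fits of the 2 groups alone, added after seeing the data, the counts in TSA-treated against non-diabetic and in diabetic against TSA-treated mice were 894 and 0 with a crossed block and 5 and 0 with the numbered block, beside 714 and 0 with no block. Genes whose levels lie near or below the array medians, such as Mx1 and Oas3, are limited by signal over background.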
